A study of Arabidopsis thaliana with 12 samples.

Results

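WRINKLED1 (WRI1, AT3G54320) and 9 plastid enzyme genes of fatty acid synthesis were followed through dissected Arabidopsis thaliana embryos. The 10 genes were set by their identifiers, with earlier results of these data known, out of 33602 genes in the table. They are WRI1, the pyruvate kinase subunits PKP-ALPHA (AT3G22960) and PKP-BETA1 (AT5G52920), the pyruvate dehydrogenase subunit PDH-E1-ALPHA (AT1G01090), the biotin carrier subunits of acetyl-CoA carboxylase BCCP1 (AT5G16390, also named CAC1) and BCCP2 (AT5G15530), and KASI (AT5G46290), KASIII (AT1G62640), MOD1 (AT2G05990) and SSI2 (AT2G43710). Poly(A) RNA was sequenced in 12 libraries, 3 per group, each a pool of torpedo-stage embryos from separate crosses. All mothers were diploid Col-0 wild type, and the wild-type pollen donors were Col-0 as well. 3x nrpd1 embryos (8 DAP, days after pollination) came from tetraploid nrpd1 pollen, 3x wt embryos (8 DAP) from tetraploid wild-type pollen, 2x nrpd1 embryos (6 DAP) from diploid nrpd1 pollen and 2x wt embryos (6 DAP) from diploid wild-type pollen. The labels call the mutant pol4. It lacks a functional large subunit of RNA polymerase IV, and because it entered only through the pollen, the embryos kept a wild-type maternal allele. The tetraploid donors had been made with colchicine. 3x wt embryos grow beside an endosperm that fails to cellularize, and 3x nrpd1 embryos beside one that mostly does. By the labels 3x and 2x embryos differed in age as well as in ploidy, and these cannot be told apart; the results text of the study gives another age for 3x nrpd1 than its methods.

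WRI1 is an AP2-type transcription factor that raises the conversion of sugars to fatty acids in developing seeds, and wri1 seeds are wrinkled and poor in oil. In the plastid, pyruvate kinase makes pyruvate, pyruvate dehydrogenase turns it into acetyl-CoA, and acetyl-CoA carboxylase makes the malonyl-CoA from which fatty acid synthase builds the acyl chain. The chain grows on an acyl carrier protein. WRI1 is known to bind a sequence called the AW-box, often found shortly upstream of the start codon in these genes.

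The AW-box, spelled CNTNG, then 7 bases of any kind, then CG, was searched on both strands in the 200 bp before the annotated start codon. It was present in 5 of 10 genes (PKP-ALPHA, PKP-BETA1, BCCP1, BCCP2 and KASI), in 22 of 41 other nuclear genes of the pathway and in 9.39% of 27444 protein-coding genes. In 500 bp it was present in 7 of the 10 genes, with PDH-E1-ALPHA and KASIII added, against 20.9% of all genes. WRI1, MOD1 and SSI2 held none in either window. The 8 sites are shown because they match the known binding sequence of WRI1. Each line gives 30 bases of the TAIR10.1 reference in the direction of the gene, with the AW-box in capitals, and all 8 sites lie between the annotated transcript start and the start codon. The first PKP-BETA1 site is read on the opposite strand.
PKP-ALPHA, chr3:8139265-8139294, plus strand: ctctcacaCTTCGATATCTCCGccttcatt
PKP-BETA1, chr5:21463524-21463553, plus strand: tgcttcttCGATACGAACTAAGcacttctt
PKP-BETA1, chr5:21463552-21463581, plus strand: ttctccgcCTTCGTAAGTTCCGccgaaaag
BCCP1, chr5:5363059-5363088, minus strand: gttgtgctCTTTGGTTTCATCGagagagaa
BCCP2, chr5:5038811-5038840, plus strand: ttgggtttCTTCGTAAGCATCGaaatcaga
BCCP2, chr5:5038918-5038947, plus strand: tcctacttCCTCGGTTTCATCGtccactgt
KASI, chr5:18776768-18776797, minus strand: aaaaatttCCTCGAATAATTCGctgttttt
KASI, chr5:18776666-18776695, minus strand: tttcacaaCATCGTACTTATCGccttcctc
A match is a description of letters and not of binding. In the promoter window from 250 bp before to 50 bp after the transcript start, the AW-box was present in 1 of the 10 genes (PDH-E1-ALPHA) and in 11.9% of all genes. The RY motif CATGCA and the G-box CACGTG were in none of the 10 promoters, against 9.72% and 7.68% of all promoters. In the 200 bp before the start codon the G-box was in 1 of the 10 genes (BCCP1) and 3.71% of all genes, and the RY motif in none and 5.21%.

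All 10 genes were among the strongly expressed genes of these embryos. RPKM, reads scaled to gene length and library size, allows levels of different genes to be set side by side. The mean over 12 libraries was 1090 RPKM for PDH-E1-ALPHA, the highest, and 109 RPKM for KASIII, the lowest, and KASIII still ranked 1104 of 33602 genes. The 10 genes together took up 0.673 ± 0.136% of all RPKM in 3x nrpd1, 0.644 ± 0.0216% in 3x wt, 0.635 ± 0.025% in 2x nrpd1 and 0.614 ± 0.0251% in 2x wt (SD, n = 3 each). In 3x nrpd1 the share was 0.751% in replicate 1, 0.751% in replicate 2 and 0.516% in replicate 3. Depth was estimated from the steps between low values as 6851605 to 13602764 reads per library. The study lists more mapped reads than this estimate for every library, and the reason for the gap was not tested. At the estimated depth each of the 10 genes rested on 1105 reads or more in each library.

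3x nrpd1 replicate 3 stood apart from the other 11 libraries. Its correlation with the other 3x nrpd1 libraries was 0.922 and 0.926, whereas those 2 correlated at 0.982. Its values followed gene length: the median log2 ratio to replicates 1 and 2 was 0.51 for genes with 500 to 1000 bp of exon and -1.21 for genes over 3000 bp. PKP-ALPHA, with 2256 bp of exon, was at 0.494 of the mean of the other replicates, and PKP-BETA1 at 0.611, the lowest of the 10 genes. Not all of the 10 followed length. WRI1, with 2015 bp, had a log2 ratio of 0.039, where the median of genes with 2000 to 2500 bp was -0.55. KASIII was at 0.16 and PDH-E1-ALPHA at -0.017. PKP-ALPHA, PKP-BETA1 and SSI2 lay below the median of their length class, and the other genes above it. The comparison of the 10 genes between 3x nrpd1 and 3x wt is therefore given with and without 3x nrpd1 replicate 3.

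**Figure D1:**
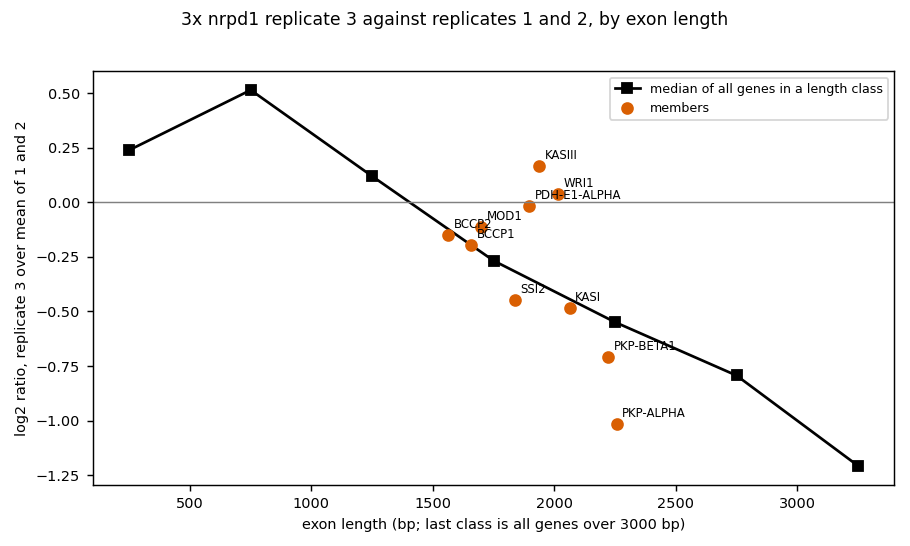
The y axis gives the log2 ratio of 3x nrpd1 replicate 3 to the mean of replicates 1 and 2 (RPKM + 0.5), and the x axis the exon length in bp; squares are medians of all genes with a mean of at least 5 RPKM in a length class, and circles are the 10 genes. PKP-ALPHA lies lowest at -1.02 and KASIII highest at 0.16.

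The embryo markers LEC1, FUS3 and ABI3 were expressed in all 12 libraries, at 65.2, 28.7 and 31.5 RPKM or more. LEC1 was lowest in 3x wt (65.2 to 101 RPKM) and FUS3 highest there (61.9 to 73.7 RPKM). The sum of 17 embryo markers was 402 to 748 RPKM in 3x nrpd1, 568 to 680 in 3x wt, 630 to 783 in 2x nrpd1 and 662 to 687 in 2x wt. The summed level of 15 seed coat markers was 141 to 210 RPKM in 3x nrpd1, 294 to 352 in 3x wt, 194 to 214 in 2x nrpd1 and 180 to 190 in 2x wt. The sum of 12 endosperm markers was 23.3 to 78.8 RPKM in 3x nrpd1, 85.8 to 94.0 in 3x wt, 56.7 to 66.9 in 2x nrpd1 and 57.1 to 68.4 in 2x wt. Of the defining markers, PHE1 reached 3.70 RPKM in 3x nrpd1 and 1.96 RPKM in 3x wt and was listed at 0 in all 2x libraries, AGL62 did not exceed 0.874 RPKM and FWA 0.625 RPKM in any group, and BAN was at 3.70 to 5.84 RPKM in 3x wt and at most 2.11 RPKM elsewhere. TT12, the other defining seed coat marker, was lower in 3x wt (0.338 to 1.11 RPKM) than in the other groups (1.41 to 2.43 RPKM). A single gene made up most of the seed coat sum, and another most of the endosperm sum. Without SUC5 the endosperm sum was 4.08 to 11.2 RPKM in 3x nrpd1, 2.74 to 4.04 in 3x wt, 2.05 to 4.86 in 2x nrpd1 and 3.47 to 4.91 in 2x wt. Without ARA12 the seed coat sum was 39.6 to 45.5 RPKM in 3x nrpd1, 42.0 to 53.8 in 3x wt, 44.4 to 47.9 in 2x nrpd1 and 40.7 to 44.6 in 2x wt. The part of these tissues in the results below was not tested. NRPD1 transcript averaged 2.93 ± 1.01 RPKM in 3x nrpd1, 1.75 ± 0.37 in 3x wt, 3.56 ± 0.849 in 2x nrpd1 and 2.51 ± 0.155 in 2x wt (SD, n = 3 each). It was not lower in the nrpd1 groups, which carry a wild-type maternal allele, and so gave no check of the labels.

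**Figure D2:**
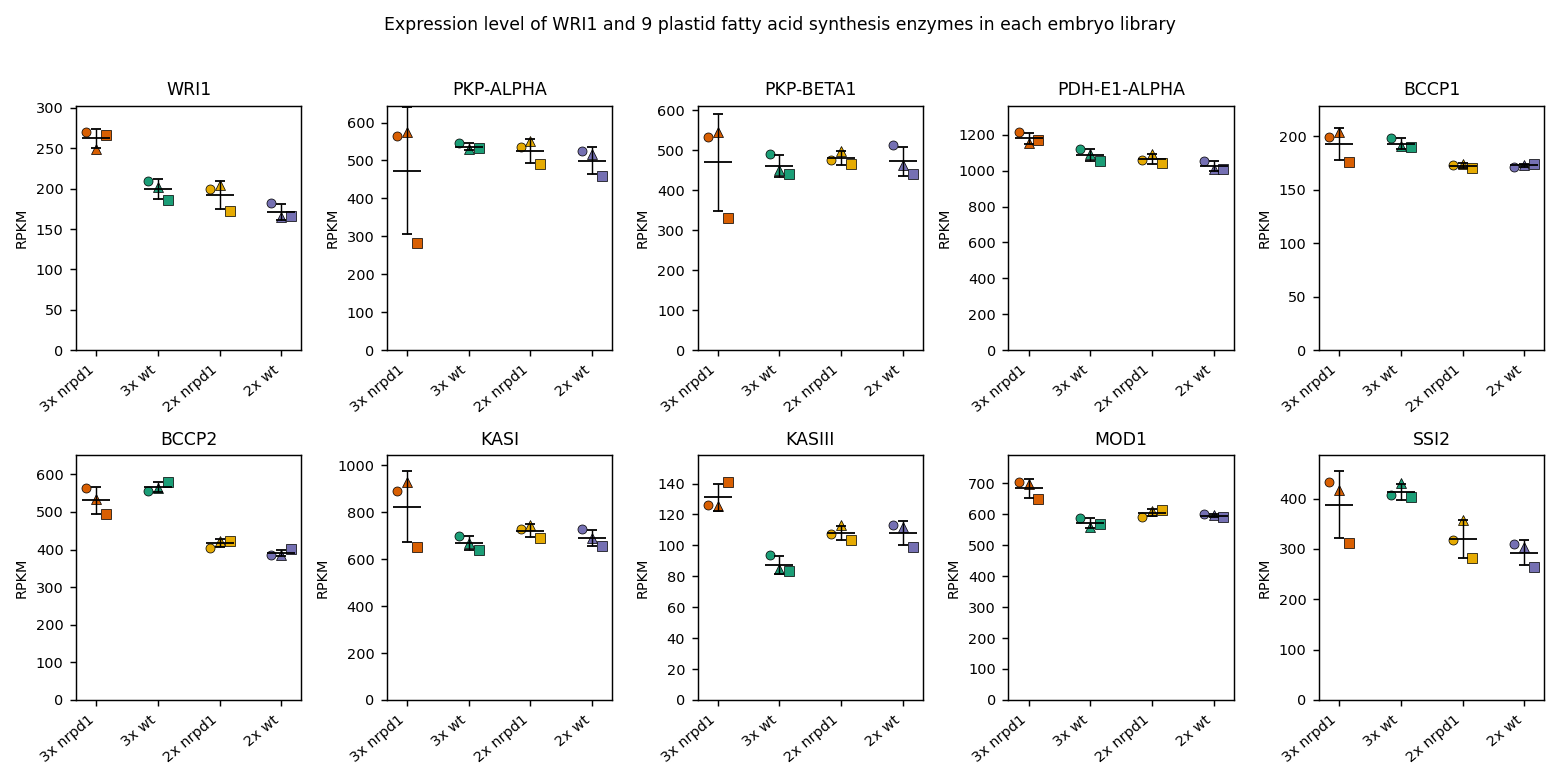
RPKM as deposited (y axis, from 0) of each gene in the 4 groups; circles, triangles and squares are replicates 1, 2 and 3, and bars give the mean and SD of 3 libraries. WRI1 is highest in 3x nrpd1 (249 to 270 RPKM), KASIII is lowest in 3x wt (83.2 to 93.7 RPKM), and PKP-ALPHA spreads widest within 3x nrpd1 (281 to 575 RPKM).

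The first comparison asked what differed in 3x wt embryos, beside an uncellularized endosperm, relative to 2x wt embryos. BCCP2 and SSI2 rose about 1.6-fold in 3x wt and WRI1 and BCCP1 rose less, while no gene of the 10 reached a 2-fold change. At an adjusted p under 0.05 whatever the size, 6 of 10 genes were higher and 0 lower in 3x wt, beside 26.7% higher and 24.6% lower among 17965 genes tested with limma and Benjamini-Hochberg adjustment. With a log2 fold change of 1 also required, 0 of 10 passed, beside 11.1% of all genes higher and 4.85% lower. The median log2 fold change of the 10 genes was 0.26, against -0.01 for all genes. The 5 genes with an AW-box in the 200 bp before the start codon had log2 fold changes of 0.12 to 0.70 and the other 5 of -0.14 to 0.66, so the ranges overlapped.

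WRI1 had 210, 202 and 186 RPKM in 3x wt, against 182, 165 and 166 RPKM in 2x wt. The groups did not overlap. Its log2 fold change was 0.38 ± 0.08 (SE), adjusted p = 0.00444 by limma.

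BCCP2, the biotin carrier of the carboxylase known mainly from seeds, had 556, 565 and 581 RPKM in 3x wt, against 386, 385 and 401 RPKM in 2x wt. All 3x wt libraries were above all 2x wt libraries. The log2 fold change was 0.70 ± 0.08 (limma adjusted p = 0.000138), the largest of the 10. BCCP2 shares 192 bp at one end with AT5G15520 on the other strand, and 180 bp at the other end with AT5G15533, and reads of an unstranded kit cannot be assigned between them; AT5G15520 was itself at 24.4 to 28.4 RPKM in 3x wt and 36.7 to 44.6 RPKM in 2x wt. BCCP1, the carrier used throughout the plant, had 199, 190 and 190 RPKM in 3x wt, against 171, 173 and 174 RPKM in 2x wt. Its log2 fold change of 0.32 ± 0.07 had an adjusted p of 0.00531 by limma.

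SSI2 is a stearoyl-ACP desaturase, which makes oleate from stearate on the carrier protein. It had 407, 430 and 402 RPKM in 3x wt, against 310, 304 and 264 RPKM in 2x wt. The groups did not overlap, and the log2 fold change was 0.66 ± 0.10 (limma adjusted p = 0.000741).

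The pyruvate enzymes changed less. PKP-ALPHA, the alpha subunit of plastid pyruvate kinase, had 547, 530 and 534 RPKM in 3x wt, against 525, 516 and 458 RPKM in 2x wt (log2 fold change 0.27 ± 0.10, limma adjusted p = 0.0432). PDH-E1-ALPHA had 1120, 1091 and 1054 RPKM in 3x wt, against 1056, 1011 and 1011 RPKM in 2x wt, and these overlapped (0.25 ± 0.09, limma adjusted p = 0.0466). Both calls were lost when 1 of 5 of the 6 libraries was left out (each library except 2x wt replicate 2), with adjusted p up to 0.116 for PKP-ALPHA and 0.142 for PDH-E1-ALPHA. PKP-BETA1, the beta subunit, was at 491, 450 and 441 RPKM in 3x wt and 513, 463 and 440 RPKM in 2x wt.

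Among the enzymes of chain elongation, none passed the test. KASIII, which joins the first acetyl unit to malonyl-ACP, had 93.7, 84.8 and 83.2 RPKM in 3x wt, against 113, 112 and 99.2 RPKM in 2x wt (log2 fold change -0.14, 95% interval -0.35 to 0.07, limma adjusted p = 0.223). MOD1, the enoyl-ACP reductase, had 588, 558 and 569 RPKM in 3x wt, against 600, 597 and 590 RPKM in 2x wt (0.10, interval -0.08 to 0.29). KASI, which extends the growing chain, was at 639 to 700 RPKM in 3x wt and 656 to 728 RPKM in 2x wt (0.12, interval -0.09 to 0.33).

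The size of these changes depended on how libraries were scaled. The median of all genes moved to -0.16 with RPKM as deposited and to -0.11 after quantile normalization. BCCP2 and SSI2 were called on all 3 scales, with log2 fold changes of 0.54 and 0.50 as deposited. WRI1 was called as deposited (0.22, limma adjusted p = 0.0429) and missed the threshold after quantile normalization (0.21, adjusted p = 0.0513). PKP-ALPHA was called after quantile normalization (0.20, adjusted p = 0.042) and not as deposited (0.11, adjusted p = 0.292), and PDH-E1-ALPHA on neither (0.084 as deposited, adjusted p = 0.368, and 0.10). BCCP1 missed the threshold on both other scales (0.16 and 0.14), and KASIII was called lower on both (-0.31 as deposited, limma adjusted p = 0.0146, and -0.29), and also without 2x wt replicate 3 on the main scale (-0.24, adjusted p = 0.041). With either scale 3 genes were called higher and 1 lower, where all genes split into 3650 higher and 6123 lower as deposited, against 4805 and 4413 on the main scale. In RPKM as deposited, 5 of the 10 genes lay above all 2x wt libraries, beside 23.2% of all genes, and 2 (KASIII and MOD1) lay below, beside 39.6%.

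**Figure D3:**
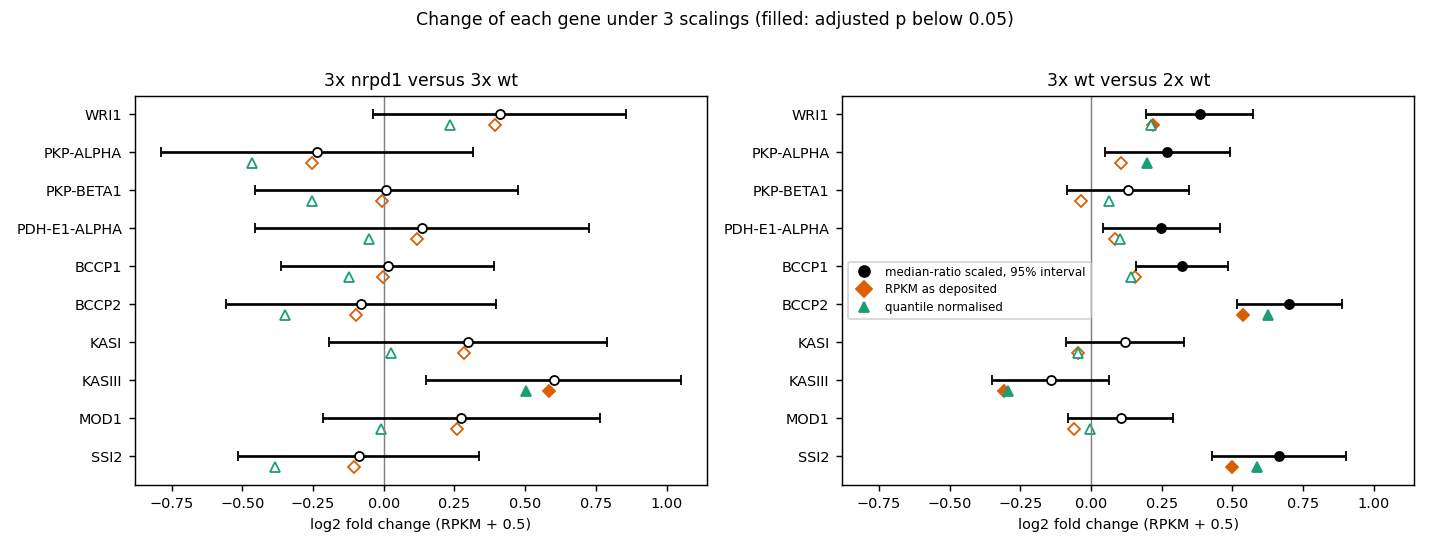
Log2 fold change on the RPKM + 0.5 scale (x axis) for each gene in 3x nrpd1 versus 3x wt (left) and 3x wt versus 2x wt (right); black circles with 95% intervals are the median-ratio scale, diamonds RPKM as deposited and triangles quantile normalised values, filled at an adjusted p below 0.05. BCCP2 (0.70) and SSI2 (0.66) stand highest in 3x wt versus 2x wt, and KASI, PKP-BETA1 and MOD1 change sign with the scale there.

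The second comparison set 3x nrpd1, with mostly cellularized endosperm, against 3x wt. None of the 10 genes passed at an adjusted p under 0.05, beside 5.92% of 17913 genes called higher and 8.46% called lower by limma. With a log2 fold change of 1 also required the shares of all genes were 3.18% higher and 6.5% lower. Of the 10 genes, 1 had an unadjusted p under 0.05, as did 31.4% of all genes. The median standard error of the 10 genes was 0.20, against 0.09 in 3x wt versus 2x wt.

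KASIII had the largest difference, with 126, 126 and 141 RPKM in 3x nrpd1, against 93.7, 84.8 and 83.2 RPKM in 3x wt. All 3x nrpd1 libraries were above all 3x wt libraries. The log2 fold change was 0.60 (95% interval 0.15 to 1.05), with a limma adjusted p of 0.0783. It passed the threshold with RPKM as deposited (adjusted p = 0.0253), after quantile normalization (0.0203), with all 12 libraries in one limma fit (0.0118) and without 3x nrpd1 replicate 3 (log2 fold change 0.42, adjusted p = 0.00596); over all alternatives the adjusted p ranged up to 0.265.

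WRI1 had 270, 249 and 267 RPKM in 3x nrpd1, against 210, 202 and 186 RPKM in 3x wt, again without overlap. The log2 fold change was 0.41 (95% interval -0.04 to 0.86, limma adjusted p = 0.191). Without 3x nrpd1 replicate 3 it was 0.27, with an adjusted p of 0.0358. KASI, at 891, 931 and 650 RPKM in 3x nrpd1 and 700, 670 and 639 RPKM in 3x wt, had a log2 fold change of 0.30 (limma adjusted p = 0.369), and without that library 0.33 with an adjusted p of 0.00882. Leaving it out thus moved the count from 0 to 3 of 10 genes, all higher in 3x nrpd1, beside 13.5% of 17651 genes higher and 16.5% lower.

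For the pyruvate kinase subunits the lowest 3x nrpd1 library, replicate 3, set the spread. PKP-ALPHA had 564, 575 and 281 RPKM in 3x nrpd1, against 547, 530 and 534 RPKM in 3x wt (log2 fold change -0.24, 95% interval -0.79 to 0.31, and -0.027 without 3x nrpd1 replicate 3, interval -0.18 to 0.13). PKP-BETA1 had 533, 546 and 329 RPKM in 3x nrpd1, against 491, 450 and 441 RPKM in 3x wt (0.0089, interval -0.46 to 0.47, and 0.12 without that library, interval -0.039 to 0.27). BCCP1 was at 176 to 204 RPKM in 3x nrpd1 and 190 to 199 RPKM in 3x wt (0.014, and -0.049 without that library).

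The genes highest in 3x wt relative to 2x wt were not separated between the triploids. BCCP2 had 564, 533 and 494 RPKM in 3x nrpd1, against 556, 565 and 581 RPKM in 3x wt (log2 fold change -0.08, 95% interval -0.56 to 0.40, and -0.16 without 3x nrpd1 replicate 3). SSI2 had 434, 418 and 312 RPKM in 3x nrpd1, against 407, 430 and 402 RPKM in 3x wt (-0.09, interval -0.51 to 0.34, and -0.068 without that library). MOD1 was at 648 to 706 RPKM in 3x nrpd1 and 558 to 588 RPKM in 3x wt, and PDH-E1-ALPHA at 1155 to 1216 RPKM in 3x nrpd1 and 1054 to 1120 RPKM in 3x wt. Their log2 fold changes were 0.27 and 0.13, and without replicate 3 they were 0.18 and 0.011. With WRI1 and KASIII these made 4 of 10 genes above all 3x wt libraries in RPKM as deposited, beside 19.6% of all genes, and 0 below, beside 20.1%.

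The remaining pairs were compared in the same way. In 3x nrpd1 versus 2x nrpd1, 0 of 10 genes passed, beside 0.984% of 17585 genes in either direction. BCCP2 was at 494 to 564 RPKM in 3x nrpd1 and 405 to 423 RPKM in 2x nrpd1, and WRI1 at 249 to 270 RPKM in 3x nrpd1 and 172 to 204 RPKM in 2x nrpd1. Their log2 fold changes were 0.48 and 0.58 (limma adjusted p = 0.413 and 0.305); without 3x nrpd1 replicate 3 BCCP2 passed (0.42, adjusted p = 0.0412) and WRI1 did not (0.47, adjusted p = 0.0628), so that 1 of 10 genes passed beside 2.71% of all genes.

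Between 3x nrpd1 and 2x wt 0 of 10 genes passed, beside 2.42% of 17619 genes. WRI1 had the largest log2 fold change of the 10, 0.78 (95% interval 0.35 to 1.21, limma adjusted p = 0.085). Without 3x nrpd1 replicate 3, WRI1 (0.65, adjusted p = 0.00639), BCCP2 (0.54, 0.0135) and SSI2 (0.60, 0.0205) passed, beside 8.58% of all genes. This comparison shares its 2x wt libraries with 3x wt versus 2x wt.

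In 2x nrpd1 versus 2x wt, 0 of 10 genes passed, beside 0% of 17472 genes by limma, where 984 genes had an unadjusted p under 0.05. WRI1 was at 199, 204 and 172 RPKM in 2x nrpd1 and 182, 165 and 166 RPKM in 2x wt (log2 fold change 0.19, 95% interval -0.03 to 0.41). The intervals of the 10 genes reached from -0.19 to 0.43. With the replicate number as a block 1 gene was called at a 2-fold change, which was none of the 10.

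The difference between the 3x versus 2x change under wild-type pollen and that under nrpd1 pollen was tested over all 12 libraries. None of the 10 genes passed, beside 11.7% of 18561 genes by limma. KASIII came nearest: in RPKM as deposited it was lower in 3x wt than in 2x wt and higher in 3x nrpd1 (126, 126 and 141 RPKM) than in 2x nrpd1 (107, 113 and 104 RPKM). Neither change passed on the main scale (limma adjusted p = 0.223 and 0.492). The difference of log2 changes, wild-type pollen minus nrpd1 pollen, was -0.55 (upper end of the 95% interval -0.10, limma adjusted p = 0.109). It passed as deposited (-0.58, adjusted p = 0.022), after quantile normalization (-0.52, 0.0171) and without 3x nrpd1 replicate 3 (-0.38, 0.0495), where 21.3% of all genes passed.

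Around these genes, a list of 42 further genes of plastid fatty acid synthesis and its carbon supply was read from the same fits. In 3x wt versus 2x wt 39 were tested, 14 were higher, 1 was lower and 24 did not pass at an adjusted p under 0.05, with a median log2 fold change of 0.11; among all genes 26.7% were higher and 24.6% lower. As deposited the split was 10 higher and 6 lower, beside 3650 higher and 6123 lower of 17965 genes. After quantile normalization it was 11 and 4, beside 4061 and 5635. The list median was -0.059 as deposited and -0.025 after quantile normalization. For all genes the median was -0.01 on the main scale, -0.16 as deposited and -0.11 after quantile normalization. With a 2-fold change required, 3 were higher and 1 was lower on the main scale, beside 11.1% and 4.85% of all genes. In 3x nrpd1 versus 3x wt 40 were tested and 1 passed, higher in 3x nrpd1, beside 5.92% of all genes higher and 8.46% lower. Without 3x nrpd1 replicate 3, ACP4 and AAD6, described below, were called higher in 3x nrpd1 (limma adjusted p = 0.000971 and 0.00345). ACP5 was then called lower (limma adjusted p = 6.87e-05), where 13.5% of all genes were higher and 16.5% lower.

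**Figure D4:**
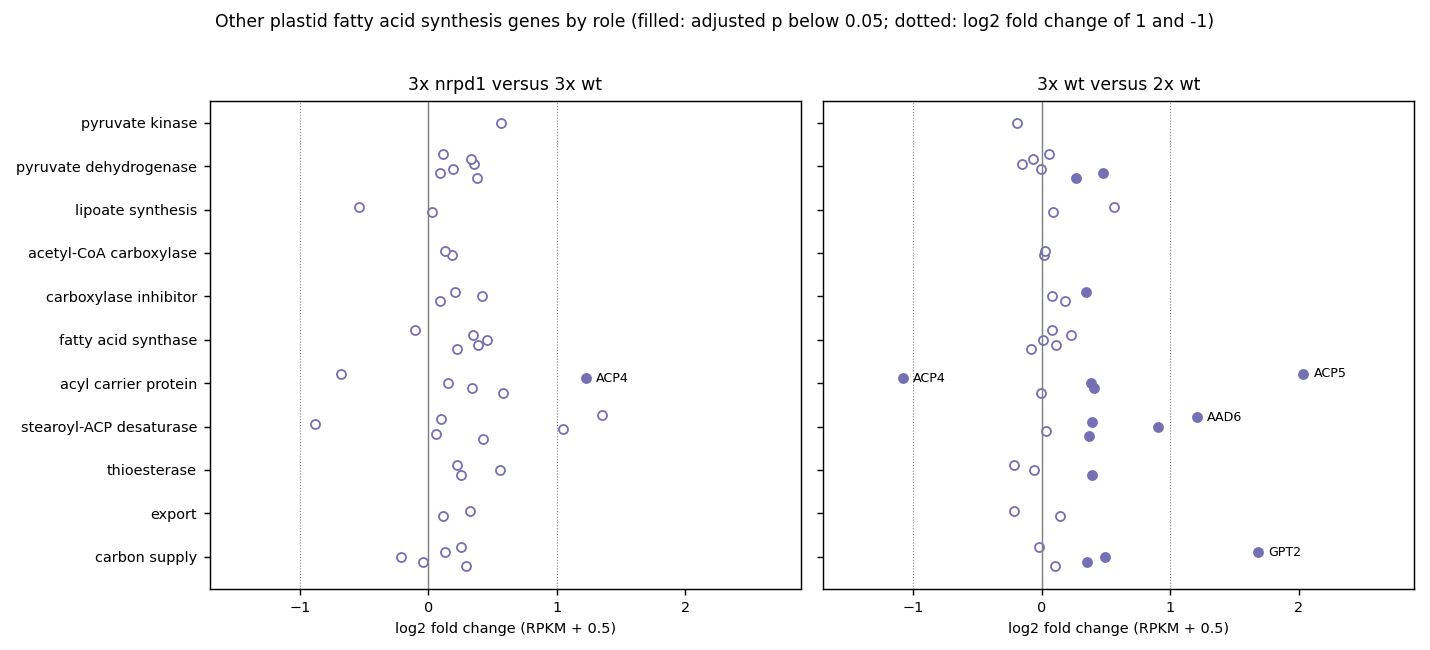
Log2 fold change on the RPKM + 0.5 scale (x axis) of the further pathway genes, grouped by role (y axis), in 3x nrpd1 versus 3x wt (left) and 3x wt versus 2x wt (right); filled circles have an adjusted p below 0.05 and dotted lines mark log2 fold changes of 1 and -1. ACP5 (2.03) and ACP4 (-1.08) lie at opposite ends in 3x wt versus 2x wt.

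Of 5 plastid acyl carrier proteins, which hold the growing chain, 3 rose in 3x wt relative to 2x wt, 1 fell and 1 did not pass. ACP2 and ACP3 rose by 0.41 and 0.39 on the log2 scale (limma adjusted p = 0.00871 and 0.00324), and ACP1 was at -0.0017 (95% interval -0.22 to 0.22). ACP5 had 1078, 1034 and 1077 RPKM in 3x wt, against 291, 318 and 265 RPKM in 2x wt. This was the largest rise of the list (log2 fold change 2.03 ± 0.11, limma adjusted p = 1.62e-06). ACP4, known as the main carrier isoform of leaves, had 114, 91.7 and 87.3 RPKM in 3x wt, against 219, 257 and 218 RPKM in 2x wt. It fell by 1.08 on the log2 scale (SE 0.11, limma adjusted p = 7.78e-05).

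ACP4 was also the gene that passed in 3x nrpd1 versus 3x wt, with 188, 199 and 308 RPKM in 3x nrpd1, against 114, 91.7 and 87.3 RPKM in 3x wt. The log2 fold change was 1.23 ± 0.30 (limma adjusted p = 0.0315). It was 0.87 without 3x nrpd1 replicate 3 (adjusted p = 0.000971), and the call was lost when any 1 of the 3x wt libraries was left out, with adjusted p of 0.0828, 0.147 and 0.153 without replicates 1, 2 and 3. ACP5 had 547, 491 and 1059 RPKM in 3x nrpd1, against 1078, 1034 and 1077 RPKM in 3x wt. Replicate 3 thus lay within the 3x wt range and replicates 1 and 2 well below it. The log2 ratio of replicate 3 to replicates 1 and 2 was 1.03 for ACP5 (644 bp of exon) and 0.67 for ACP4 (1162 bp). The medians of their length classes were 0.51 and 0.12. What set these values apart was not tested. Without replicate 3 ACP5 was lower in 3x nrpd1 (log2 fold change -1.15, limma adjusted p = 6.87e-05).

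**Figure D5:**
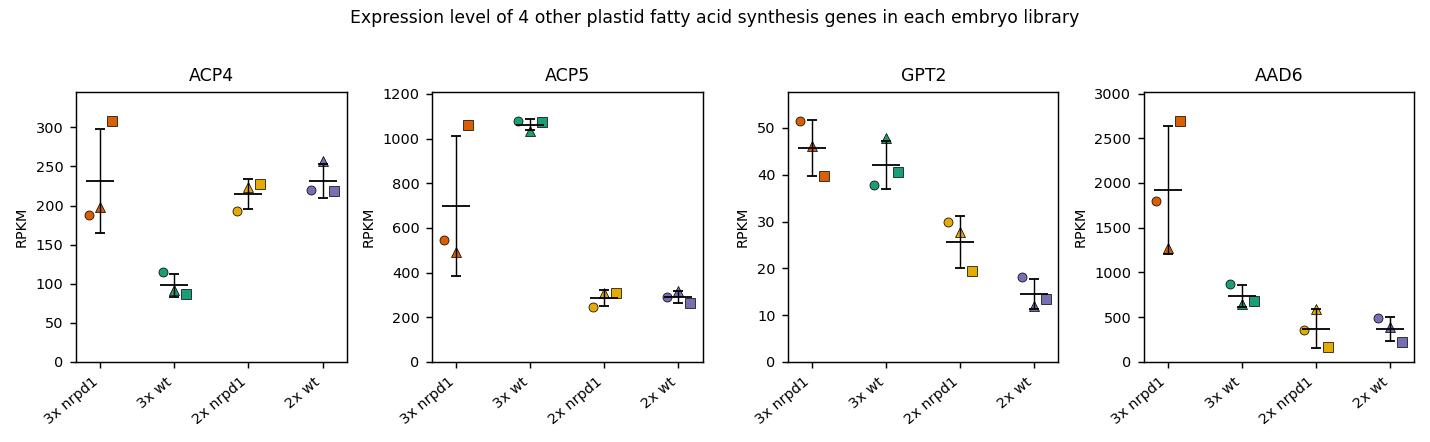
RPKM as deposited (y axis, from 0) of ACP4, ACP5, GPT2 and AAD6 in the 4 groups; circles, triangles and squares are replicates 1, 2 and 3, and bars give the mean and SD of 3 libraries. ACP4 is lowest in 3x wt (87.3 to 114 RPKM), and 3x nrpd1 replicate 3 lies apart from replicates 1 and 2 for ACP5.

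GPT2, a glucose 6-phosphate carrier of the plastid envelope, had 37.8, 47.9 and 40.7 RPKM in 3x wt, against 18.1, 12.04 and 13.4 RPKM in 2x wt (log2 fold change 1.68 ± 0.16, limma adjusted p = 4.53e-05). The rise was not particular to 3x wt. GPT2 was at 39.6 to 51.5 RPKM in 3x nrpd1 and 19.4 to 29.9 RPKM in 2x nrpd1. Relative to 2x wt its log2 fold change was 1.79 in 3x nrpd1 (limma adjusted p = 0.00413) and 0.82 in 2x nrpd1 (limma adjusted p = 0.693). AAD6, a stearoyl-ACP desaturase of the family of SSI2, had 876, 645 and 682 RPKM in 3x wt, against 495, 392 and 227 RPKM in 2x wt (1.21 ± 0.26, limma adjusted p = 0.0039, and 0.059 with all 12 libraries in one fit). It was at 1794, 1279 and 2692 RPKM in 3x nrpd1, where the log2 fold change to 3x wt was 1.35, the largest of the list (limma adjusted p = 0.0574), and passed without replicate 2 (1.68, adjusted p = 0.0333) or without replicate 3 (0.94, adjusted p = 0.00345). The smallest was that of AAD4, another desaturase (-0.88, limma adjusted p = 0.07). AAD4 was near the filter of 1 RPKM, at 1.22 to 2.01 RPKM in 3x nrpd1 and 2.72 to 4.27 RPKM in 3x wt.

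The relatives of WRI1 were expressed far below it. WRI2 was at 14.2 to 16.8 RPKM in 3x wt and 10.1 to 16.0 RPKM in 2x wt (log2 fold change 0.47, limma adjusted p = 0.0288). WRI3 did not exceed 2.86 RPKM in any library and WRI4, at most 1.10 RPKM, did not enter the test. Of 12 genes for cytosolic or mitochondrial enzymes of the same kinds, 11 were tested in 3x wt versus 2x wt, 0 were higher and 3 were lower, beside 26.7% and 24.6% of all genes: IAR4 and MAB1 of mitochondrial pyruvate dehydrogenase (-0.60 and -0.40, adjusted p = 0.000489 and 0.00224) and the pyruvate kinase gene AT2G36580 (-0.33, adjusted p = 0.0136). AT2G04540, a mitochondrial ketoacyl-ACP synthase, had a log2 fold change of 0.34 (limma adjusted p = 0.0752).

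Over the 12 libraries the profile of WRI1 was most like that of PDH-E1 BETA, the partner subunit of PDH-E1-ALPHA (Pearson r = 0.977 on the log2 scale), followed by GAPA (0.973), LysoPL2 (0.971), NRAMP6 (0.966) and AT3G43110 (0.966), among 13451 genes with a mean of at least 5 RPKM. Without 3x nrpd1 replicate 3 these ranked 3, 14, 5, 26 and 2 (r from 0.944 to 0.96), so the order depended on that library. Among the enzyme genes r with WRI1 ran from 0.954 for PDH-E1-ALPHA down to -0.11 for PKP-ALPHA, which was 0.823 over the 11 libraries without 3x nrpd1 replicate 3, while KASIII had 0.76 over 12 libraries and 0.49 over those 11. The mean profile of the 9 enzymes was most like COL1 (r = 0.984), AT5G15845 (0.98), CHIL (0.977), AT1G48100 (0.974) and CYP98A3 (0.972), of which COL1 and AT5G15845 kept ranks 1 and 2 without that library. COL1 and AT5G15845 overlap on opposite strands, so their reads cannot be told apart. The points of these correlations share their groups and the scaling of each library.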

How the data were processed

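Embryo RNA was measured in 12 libraries of 4 groups. Per the labels and the study's methods, Trimmomatic trimming and TopHat2 mapping to TAIR10 (rRNA genes masked) preceded counting by GFOLD; the kit does not mark strand. Per gene and library the authors deposited RPKM, and how these were derived is not described. Since RPKM are no counts, log2(RPKM + 0.5) was tested with limma 3.58.1 in R 4.3.3 (intensity trend, two-sided, Benjamini-Hochberg over all genes tested) after median-ratio scaling. A gene entered when 3 or more libraries of the fit reached 1 RPKM. Fold changes of low genes are understated on this scale. Pairwise fits used 6 libraries and the interaction all 12. One call rule asked for an adjusted p under 0.05, and a stricter rule also for a log2 fold change beyond 1 in either direction. The fits were tried on simulated data in which all genes had the same spread and no library stood apart. That trial does not cover fits that hold 3x nrpd1 replicate 3. Each library pools embryos of separate crosses.

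The 10 genes and all lists were chosen with earlier results of these data known. Named were the 10 genes, pathway genes past the stricter rule in 3x wt versus 2x wt or 3x nrpd1 versus 3x wt or at the ends of the list there, the WRI family, the 3 isozymes with the largest changes, with AT2G36580 added after its value was seen, and the 5 genes most like each profile. NRPD1 and AT5G15520 were added as checks. Symbols, lengths and sequences are from RefSeq, TAIR10.1, and coordinates are of that assembly. The window before the start codon was chosen after the promoter window had been searched. Depth was estimated from the RPKM taken as worth 1 read, with 28.1% to 37.5% of values under 20 reads whole within 0.01 reads. The other low values were not whole in that unit, so depth in reads is uncertain. The length used by the authors was not known for each gene. Alternatives were pseudocounts of 0.1 and 1, no low-value filter, a minimum mean of 5 RPKM, unscaled or quantile-normalised RPKM, 1 fit of all libraries, a replicate block, robust moderation and leaving out each library. In 2x nrpd1 and 2x wt, libraries with the same replicate number deviated together (correlations 0.125, 0.368 and 0.437); the labels do not say what the number marks. Motifs and figures used Python 3.11.15 with matplotlib 3.10.9.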

Additional observations from a re-analysis of the deposited data

Results flagged for a closer look

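ACP4 differed between the pollen donors: the difference of its 3x versus 2x changes, wild-type pollen minus nrpd1 pollen, was -1.29 on the log2 scale (limma adjusted p = 0.0271 over all genes). It was -0.95 without 3x nrpd1 replicate 3 (adjusted p = 0.00262), and it missed the threshold, with adjusted p of 0.0503 to 0.081, without 3x wt replicate 2 or 3, 2x nrpd1 replicate 1 or 3, or 2x wt replicate 1 or 2. KASIII and MOD1 each had 3x versus 2x changes of opposite direction under the pollen donors in RPKM as deposited. Every 3x nrpd1 library was above every 2x nrpd1 library, and every 3x wt library was below every 2x wt library. The latter alone held for 39.6% of all genes, and the share of all genes with both is not given here. The test of that difference gave -0.55 for KASIII (limma adjusted p = 0.109) and -0.20 for MOD1 (adjusted p = 0.524), so neither passed. For MOD1 the 3x wt change was positive on the median-ratio scale. Groups of 3 libraries are too small for a test of single outlying libraries.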

How the results depend on the processing

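No member passed the 2-fold rule in any comparison under any alternative run. With a mean of at least 5 RPKM fewer genes were tested, and the numbers of genes called were 1713 in 3x wt versus 2x wt (2860 on the main settings), 1022 in 3x nrpd1 versus 3x wt, 91 in 3x nrpd1 versus 2x nrpd1 (162), 213 in 3x nrpd1 versus 2x wt (367) and 875 in the interaction (1503). With all 12 libraries in one fit the calls numbered 383 for 3x nrpd1 versus 2x nrpd1, 660 for 3x nrpd1 versus 2x wt and 1 for 2x nrpd1 versus 2x wt (0 on the main settings), as without a filter on low values (1). Of the pathway list, 2 genes in 3x nrpd1 versus 3x wt were called as deposited, 2 after quantile normalization and 3 with all 12 libraries in one fit (1 on the main settings); 2 genes in 3x nrpd1 versus 2x nrpd1 after quantile normalization and 2 with all libraries (0); and 1 in 3x nrpd1 versus 2x wt with no filter (2). Of the 10 genes, 1 (KASIII) passed at any size in 3x nrpd1 versus 3x wt as deposited, 1 after quantile normalization and 1 with all libraries. The cause of these shifts was not tested.

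With the replicate number as a block, 216 genes were called in 3x nrpd1 versus 2x wt and 1 of the pathway list, and 1 gene in 2x nrpd1 versus 2x wt; no other count of genes, of the list or of the 10 moved by over 1.5 times with the block. Outside 2x nrpd1 versus 2x wt, libraries with the same number did not all deviate together (correlations from -0.31 to 0.39).

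Small changes took the other sign on other scales. In 3x wt versus 2x wt these were PKP-BETA1 (-0.034), KASI (-0.045) and MOD1 (-0.060) as deposited, and KASI (-0.047) and MOD1 (-0.0023) after quantile normalization. In 3x nrpd1 versus 3x wt they were PKP-BETA1 (-0.0075) and BCCP1 (-0.0027) as deposited, PKP-BETA1 (-0.25), PDH-E1-ALPHA (-0.052), BCCP1 (-0.12) and MOD1 (-0.0095) after quantile normalization, and PKP-BETA1 (-0.012) and BCCP1 (-0.0074) with all libraries. None of these had passed. AAD6 missed the threshold in 3x wt versus 2x wt with all libraries in one fit (adjusted p = 0.059).

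Without single libraries, in 3x nrpd1 versus 3x wt PKP-BETA1 ranged from -0.047 to 0.12 and BCCP1 from -0.049 to 0.062. Leaving out single libraries gave 524 to 1760 genes in 3x nrpd1 versus 3x wt, 14 to 216 in 3x nrpd1 versus 2x nrpd1, 0 to 19 in 2x nrpd1 versus 2x wt, 99 to 431 in 3x nrpd1 versus 2x wt and 784 to 1898 in the interaction. The pathway list then had 0 to 2 genes called in 3x nrpd1 versus 3x wt, 0 to 1 in 3x nrpd1 versus 2x nrpd1 and 1 to 2 in 3x nrpd1 versus 2x wt, and the 10 genes had 0 to 3 called at any size in 3x nrpd1 versus 3x wt. The alternatives for named pathway genes and for the interaction were chosen after seeing the data.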
